A study of Mus musculus with 24 samples.

Results

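The integrated stress response and the unfolded protein response were described through 41 genes chosen by name, out of 49172 genes in the deposited tables. They were divided into 22 ATF4-type genes and 19 genes of the endoplasmic reticulum (ER). The ATF4-type genes are regulators or effectors of the integrated stress response or serve amino acid supply. The cells were Ocy454, a mouse cell line of osteocytic character. They were treated with lysophosphatidic acid (LPA, a lipid that signals through G protein-coupled receptors), with 1,25-dihydroxyvitamin D (1,25D, the hormonal form of vitamin D), with both agents, or with vehicle. Each treatment was sampled after 2 h and after 8 h with 3 libraries, which gave 8 groups and 24 RNA sequencing libraries. The study set out to raise FGF23, a bone hormone that controls phosphate, with these agents and to learn which pathways they act through. The sources used here give no doses. The labels do not state whether replicate libraries stem from different cultures, and the p-values therefore cover the spread among the libraries alone, which may be technical.

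The integrated stress response starts when a kinase such as PERK or GCN2 phosphorylates the translation factor eIF2α. Most protein synthesis then slows while the mRNA of the transcription factor ATF4 is translated more, and ATF4 switches on genes of amino acid synthesis, amino acid uptake and feedback. The unfolded protein response is run from the ER by the sensors PERK, IRE1 and ATF6, which raise chaperones, folding enzymes and the machinery that disposes of misfolded proteins. Cells of the osteoblast lineage secrete much collagen and are known to depend on both systems.

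Treatment names are those of the library titles. For the single treatments the letters L and D in the names of the deposited tables are exchanged relative to the titles, and known target genes of vitamin D go against the titles. Cyp24a1, the enzyme that degrades vitamin D and a classic target of its receptor, had 102 counts summed over the 3 libraries labelled LPA at 8 h, 1 count in those labelled 1,25D, 87 counts in those with both agents and 1 count in vehicle. Vdr, the vitamin D receptor, averaged 254 ± 6.88 CPM (counts relative to the scaled library size) in libraries labelled LPA at 8 h, 72.3 ± 1.91 CPM in those labelled 1,25D, 223 ± 16.1 CPM with both agents and 125 ± 11.8 CPM in vehicle (SD, n = 3 each). Both genes go with the table names, under which libraries labelled LPA received 1,25D and those labelled 1,25D received LPA. The single treatments are still called "labelled LPA" and "labelled 1,25D" after the titles, and any direction drawn from them rests on those labels. Read by the table names, each single-agent result belongs to the other agent. Turning the labels round would change neither the results of both agents against vehicle nor the interaction.

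The estimated counts of a library summed to between 32.96 M and 33.84 M. Mitochondrial transcripts took 9.01 to 16.92% of them, with the highest share in vehicle replicate 2 at 8 h. That library and both-agent replicate 2 at 8 h stood apart from their groups on the main axis of variation within groups, with scores of 41.3 and 35.1 against −27.3 to 20 in the other 22. They are kept here, and results are also given without them. Of the 5 osteocyte markers, Pdpn had 50.5 to 105 CPM, Dmp1 1.9 to 4.8 CPM and Phex 0.205 to 1.4 CPM. Sost (at most 0.226 CPM) and Mepe (at most 0.0296 CPM), which define mature osteocytes, were at or near 0. Of the 5 osteoblast markers, Col1a1 had 1650 to 5950 CPM and Runx2 22.8 to 77 CPM, while Bglap (at most 1.85 CPM), Sp7 (at most 1.57 CPM) and Alpl (at most 2.68 CPM) were near 0. Summed markers per library were 0 to 0.224 CPM for adipocytes, 0.447 to 1.35 CPM for chondrocytes, 1.66 to 2.77 CPM for endothelium, 1.64 to 3.91 CPM for skeletal muscle and 11.5 to 17.9 CPM for macrophages and blood, of which Cd68 supplied 10.6 to 17.2 CPM.

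All 41 genes were detected and passed the filter on low counts. On the TPM scale, which allows for transcript length, the ER chaperones Calr, Hspa5 and Hsp90b1 had the highest medians of the 41 genes, while other chaperone and folding genes lay low, down to 6.28 TPM for Pdia6. Calr, the calcium-binding chaperone calreticulin, had a median level of 976 TPM over the 24 libraries, and Hspa5, which encodes the main ER chaperone BiP, had 480 TPM. Hsp90b1, which encodes the chaperone GRP94, had 260 TPM. Atf4 had a median of 250 TPM. The lowest medians were 1.12 TPM for Slc7a11, the cystine transporter, 4.26 TPM for Vldlr, a lipoprotein receptor, and 4.33 TPM for Eif2ak3, which encodes PERK. All levels are from whole cultures, so fewer cells that express a gene and less RNA per cell cannot be told apart.

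Part of the ATF4-type genes rose with both agents and in the libraries labelled 1,25D at 8 h, where Atf6 in libraries labelled 1,25D was the 1 ER gene that rose. A gene is called where the adjusted p is under 0.05 in edgeR's quasi-likelihood test, with Benjamini-Hochberg adjustment over all 16424 genes tested. With both agents at 8 h, 9 of 22 ATF4-type genes rose and 0 fell, with a median log2 change of 0.23. Over all genes tested, 9.54% rose and 7.25% fell in that comparison. Of the 19 ER genes 0 rose and 3 fell, with a median of −0.05. In libraries labelled 1,25D at 8 h, 7 ATF4-type genes rose and 0 fell (median 0.10), and of the ER genes 1 rose and 3 fell (median −0.04), where 7.89% of all genes rose and 8.32% fell. In libraries labelled LPA at 8 h, 2 ATF4-type genes rose and 4 fell (median −0.07), and of the ER genes 0 rose and 4 fell (median −0.18), where 6.62% of all genes rose and 5.38% fell. The median log2 change over all genes tested was 0.03 with both agents, 0.002 in libraries labelled 1,25D and 0.003 in those labelled LPA.

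**Figure D1:**
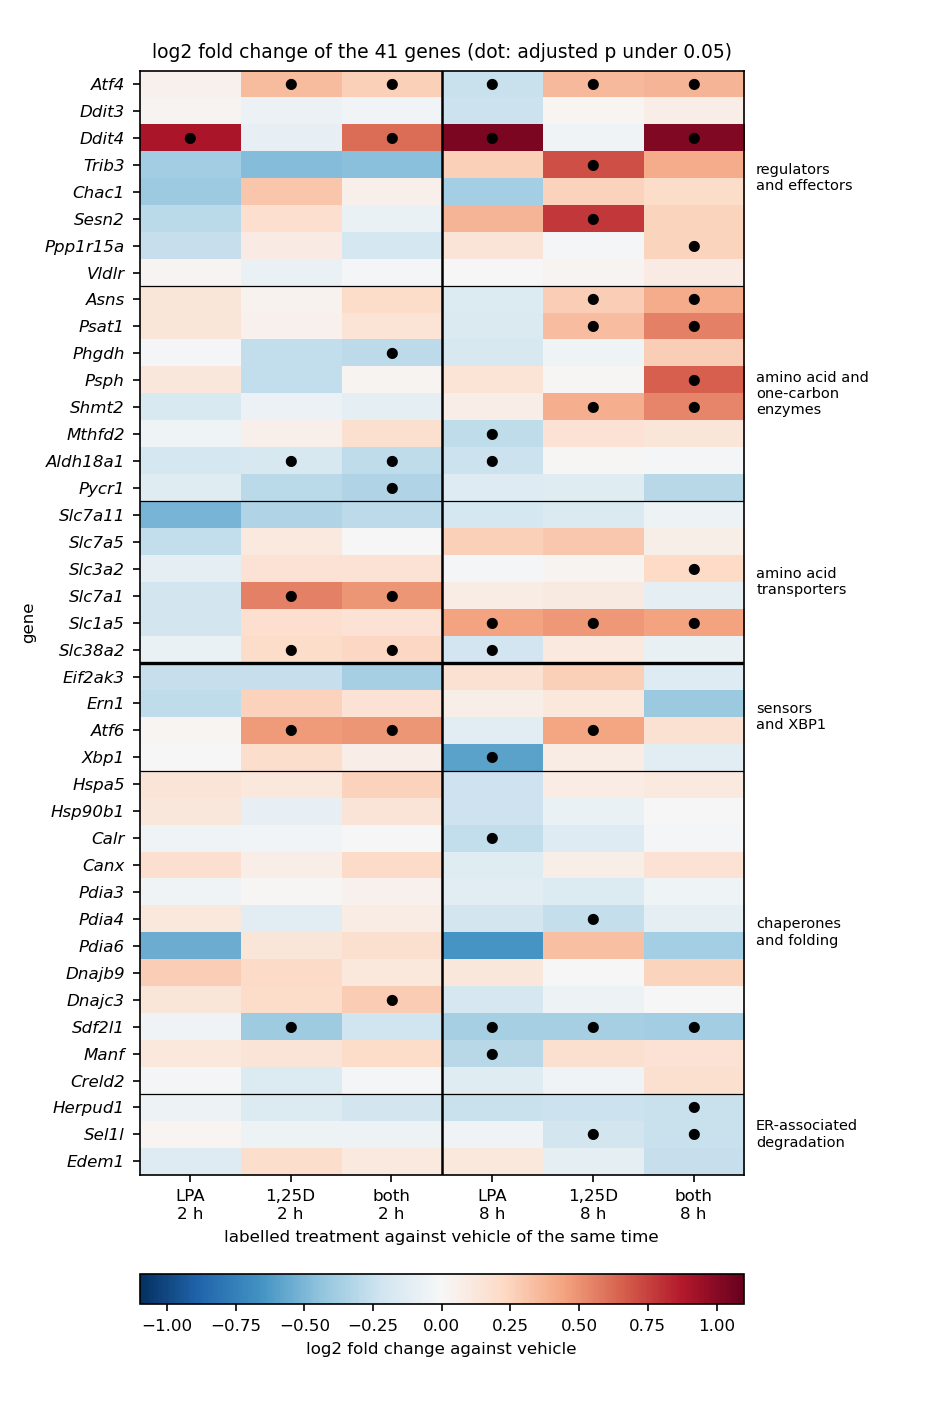
Log2 fold change against vehicle of the same time for the 41 genes (rows, grouped by role, ATF4-type genes above the thick line and ER genes under it), by labelled treatment and time (columns). A dot marks an adjusted p under 0.05. Ddit4 has the deepest red, in the labelled LPA and both-agent columns, and most chaperone rows have no dot.

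Set against the share of all genes called in the same comparison, the members stood near the background at 2 h and above it at 8 h. At 2 h, 1 of 41 (2.44%) were called in libraries labelled LPA, where 0.785% of all genes were called (0.597% higher and 0.189% lower), 6 of 41 (14.6%) in those labelled 1,25D (all genes 13.9%, 7.06% higher and 6.85% lower) and 9 of 41 (22%) with both agents (all genes 19.9%, 9.88% higher and 10% lower). At 8 h, 10 of 41 (24.4%) were called in libraries labelled LPA (all genes 12%), 11 of 41 (26.8%) in those labelled 1,25D (all genes 16.2%) and 12 of 41 (29.3%) with both agents (all genes 16.8%). The 3 comparisons of a time share their vehicle libraries. Of the 49 member calls against vehicle, 25 held with each library left out in turn, and 17 held under every alternative that was tried. Those 17 were of Ddit4, Atf4, Slc7a1, Atf6, Xbp1, Shmt2, Psat1, Psph and Slc1a5. For calls lost without a single library, misses under the other alternatives are mostly not given below. With single libraries left out, the 8 h counts were 4 to 14 in libraries labelled LPA (fewest without labelled LPA replicate 2 or vehicle replicate 2), 5 to 9 in those labelled 1,25D (fewest without labelled 1,25D replicates 2 or 3 or vehicle replicate 1) and 9 to 12 with both agents. Over all genes, 1051 to 3302, 1518 to 3408 and 2043 to 2748 were then called, in the same order. Without the 2 libraries that stood apart, the ATF4-type genes called at 8 h were 7 higher and 0 lower with both agents, 6 higher and 0 lower in libraries labelled 1,25D and 2 higher and 2 lower in those labelled LPA. The ER genes called were then 1 higher and 1 lower with both agents, 1 higher and 0 lower in libraries labelled 1,25D and 0 higher and 2 lower in those labelled LPA. Of the 16988 genes tested without them, 1235 were higher and 1016 lower with both agents. In libraries labelled 1,25D 978 were higher and 951 lower, and in those labelled LPA 764 and 564.

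**Figure D2:**
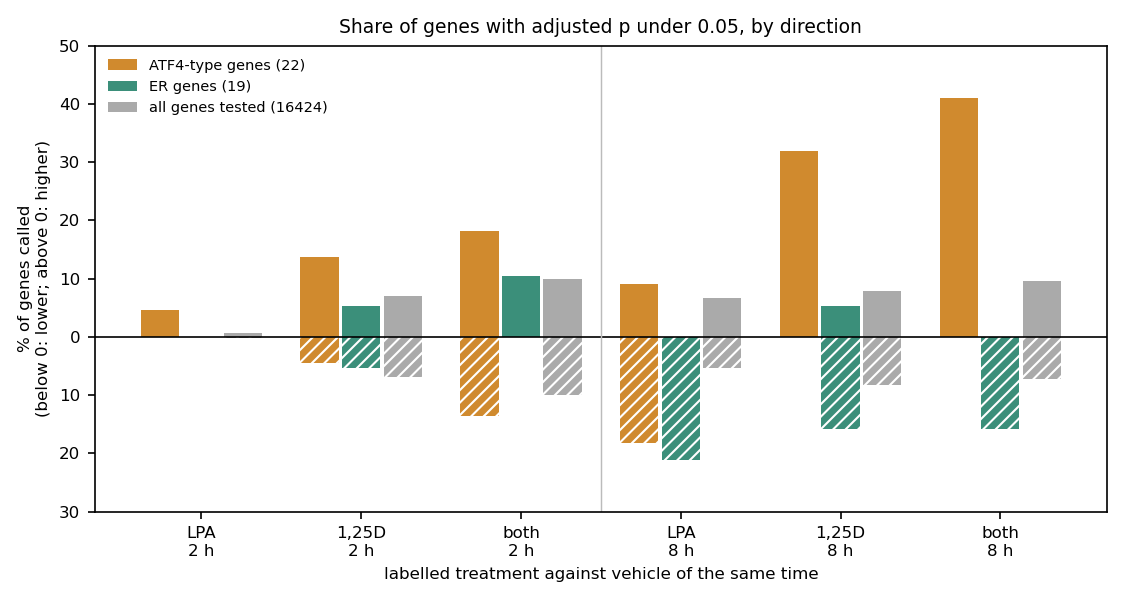
Percentage of the 22 ATF4-type genes, the 19 ER genes and all 16424 genes tested that were called in each comparison with vehicle of the same time. Bars above 0 count genes that were higher and hatched bars under 0 genes that were lower. With both agents at 8 h, 9 of 22 ATF4-type genes and 0 of 19 ER genes were higher.

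Atf4, the transcription factor at the centre of the integrated stress response, rose in libraries labelled 1,25D and with both agents at both times. At 8 h its level was 338, 350 and 329 CPM in libraries labelled 1,25D, 343, 372 and 318 CPM with both agents, and 268, 275 and 252 CPM in vehicle. No library of these 2 treated groups overlapped vehicle. The log2 change was 0.36 ± 0.08 (SE) in libraries labelled 1,25D (adjusted p = 0.00223) and 0.38 ± 0.08 with both agents (adjusted p = 0.000891), and both calls held with each library left out in turn. The call of both agents (adjusted p = 0.0566) missed the threshold with the compared groups fitted alone. At 2 h the level was 397, 453 and 486 CPM in libraries labelled 1,25D, 405, 405 and 447 CPM with both agents, and 367, 329 and 353 CPM in vehicle, again with no overlap. The log2 change was 0.35 ± 0.08 in libraries labelled 1,25D (adjusted p = 0.00249), a call that held with each library left out in turn. With both agents it was 0.26 ± 0.08 (adjusted p = 0.0156), and the call was lost without both-agent replicate 3 (adjusted p = 0.0776) or vehicle replicate 2 (0.0888).

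The libraries labelled LPA went the other way at 8 h. Atf4 had 349, 376 and 360 CPM in them at 2 h, overlapping vehicle, with a log2 change of 0.05 ± 0.08 (adjusted p = 0.788). At 8 h it had 221, 215 and 236 CPM, all under the 3 vehicle libraries, with a log2 change of −0.24 ± 0.08 (adjusted p = 0.0382). That call was lost without labelled LPA replicate 2 (adjusted p = 0.125) or vehicle replicates 1 or 2 (0.0658 and 0.146). It also missed the threshold with no filter on low counts (adjusted p = 0.103) and the compared groups fitted alone (0.144). With both libraries that stood apart left out it missed it as well (0.09). Set directly against each other, the libraries labelled LPA were lower in Atf4 than those labelled 1,25D at 8 h (log2 difference −0.60 ± 0.08, adjusted p = 3.41e-06). The same held at 2 h (−0.30 ± 0.08, adjusted p = 0.00661). Both of these calls held with each library left out in turn. These are transcript levels, and the translation of Atf4 mRNA was not measured.

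Ddit4, which encodes REDD1, an inhibitor of the growth kinase mTORC1, split the treatments differently and had the largest change against vehicle of the 41 genes. At 8 h it had 35.7, 42.6 and 32.8 CPM in libraries labelled LPA, 18.1, 17.3 and 17.5 CPM in those labelled 1,25D, 34.2, 39.7 and 36.2 CPM with both agents, and 19.3, 16.3 and 18.6 CPM in vehicle. The labelled LPA and both-agent libraries were all above the other 6 of that time. The log2 change was 1.04 ± 0.11 in libraries labelled LPA (adjusted p = 3.33e-07), −0.04 ± 0.11 in those labelled 1,25D (adjusted p = 0.86) and 1.02 ± 0.11 with both agents (adjusted p = 2.7e-07). At 2 h it had 16.7, 18 and 16.2 CPM in libraries labelled LPA, 8.08, 7.47 and 10 CPM in those labelled 1,25D, 13.9, 13.2 and 14.5 CPM with both agents, and 9.35, 8.46 and 9.47 CPM in vehicle. The same libraries were high, with log2 changes of 0.90 ± 0.11 in those labelled LPA (adjusted p = 3.88e-05), −0.09 ± 0.11 in those labelled 1,25D (adjusted p = 0.678) and 0.61 ± 0.11 with both agents (adjusted p = 0.000302). The 4 calls against vehicle held with each library left out in turn.

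The other regulators changed little against vehicle or varied between libraries. Ddit3, which encodes the pro-apoptotic factor CHOP, had 41.6 to 66.5 CPM over the 24 libraries, and its log2 changes of −0.24 to 0.07 against vehicle were not called. Vldlr, which ATF4 is known to raise under ER stress, had 11.8 to 19.1 CPM and was not called, at log2 changes of −0.07 to 0.09. Chac1, a glutathione-degrading enzyme and a sensitive ATF4 target, was not called against vehicle either, at log2 changes of −0.40 to 0.30. It differed between the single treatments. At 8 h Chac1 had 7.36, 8.86 and 6.86 CPM in libraries labelled LPA, against 11.5, 11.4 and 12.8 CPM in those labelled 1,25D, and at 2 h 11.8, 11 and 11.7 CPM in libraries labelled LPA, against 16.3, 17.5 and 22.3 CPM in those labelled 1,25D. The groups did not overlap at either time. The log2 difference at 8 h was −0.63 ± 0.14 (adjusted p = 0.00287), that at 2 h −0.70 ± 0.14 (adjusted p = 0.00106), and both calls held with each library left out in turn.

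Trib3, a pseudokinase that feeds back on ATF4, and Sesn2, a leucine sensor that restrains mTORC1, were called in libraries labelled 1,25D at 8 h on uneven libraries. Trib3 had 7.96, 9.04 and 11.8 CPM in libraries labelled 1,25D, against 5.56, 4.87 and 7.24 CPM in vehicle, a log2 change of 0.71 ± 0.24 (adjusted p = 0.048), and the groups did not overlap. That call was lost without labelled 1,25D replicates 1, 2 or 3 (adjusted p = 0.0512, 0.0783 and 0.221) or vehicle replicates 1 or 2 (0.122 and 0.195). Sesn2 had 19.6, 22.9 and 21.6 CPM in libraries labelled 1,25D, 16.8, 9.86 and 17.6 CPM with both agents, and 14.2, 7.57 and 15.6 CPM in vehicle. Its lowest values with both agents and in vehicle were in the 2 libraries that stood apart. The log2 change of Sesn2 in libraries labelled 1,25D was 0.78 ± 0.22 (adjusted p = 0.0201), and the call was lost without labelled 1,25D replicates 2 or 3 (adjusted p = 0.0647 and 0.0557) or vehicle replicate 2 (0.12). Ppp1r15a, the GADD34 subunit that directs a phosphatase to eIF2α, had 58, 58.8 and 56.9 CPM with both agents at 8 h, against 50.2, 48.1 and 48.3 CPM in vehicle, and the groups did not overlap. This was a log2 change of 0.25 ± 0.08 (adjusted p = 0.0406), and the call was lost without any single one of the 6 libraries (adjusted p = 0.0797 to 0.121).

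**Figure D3:**
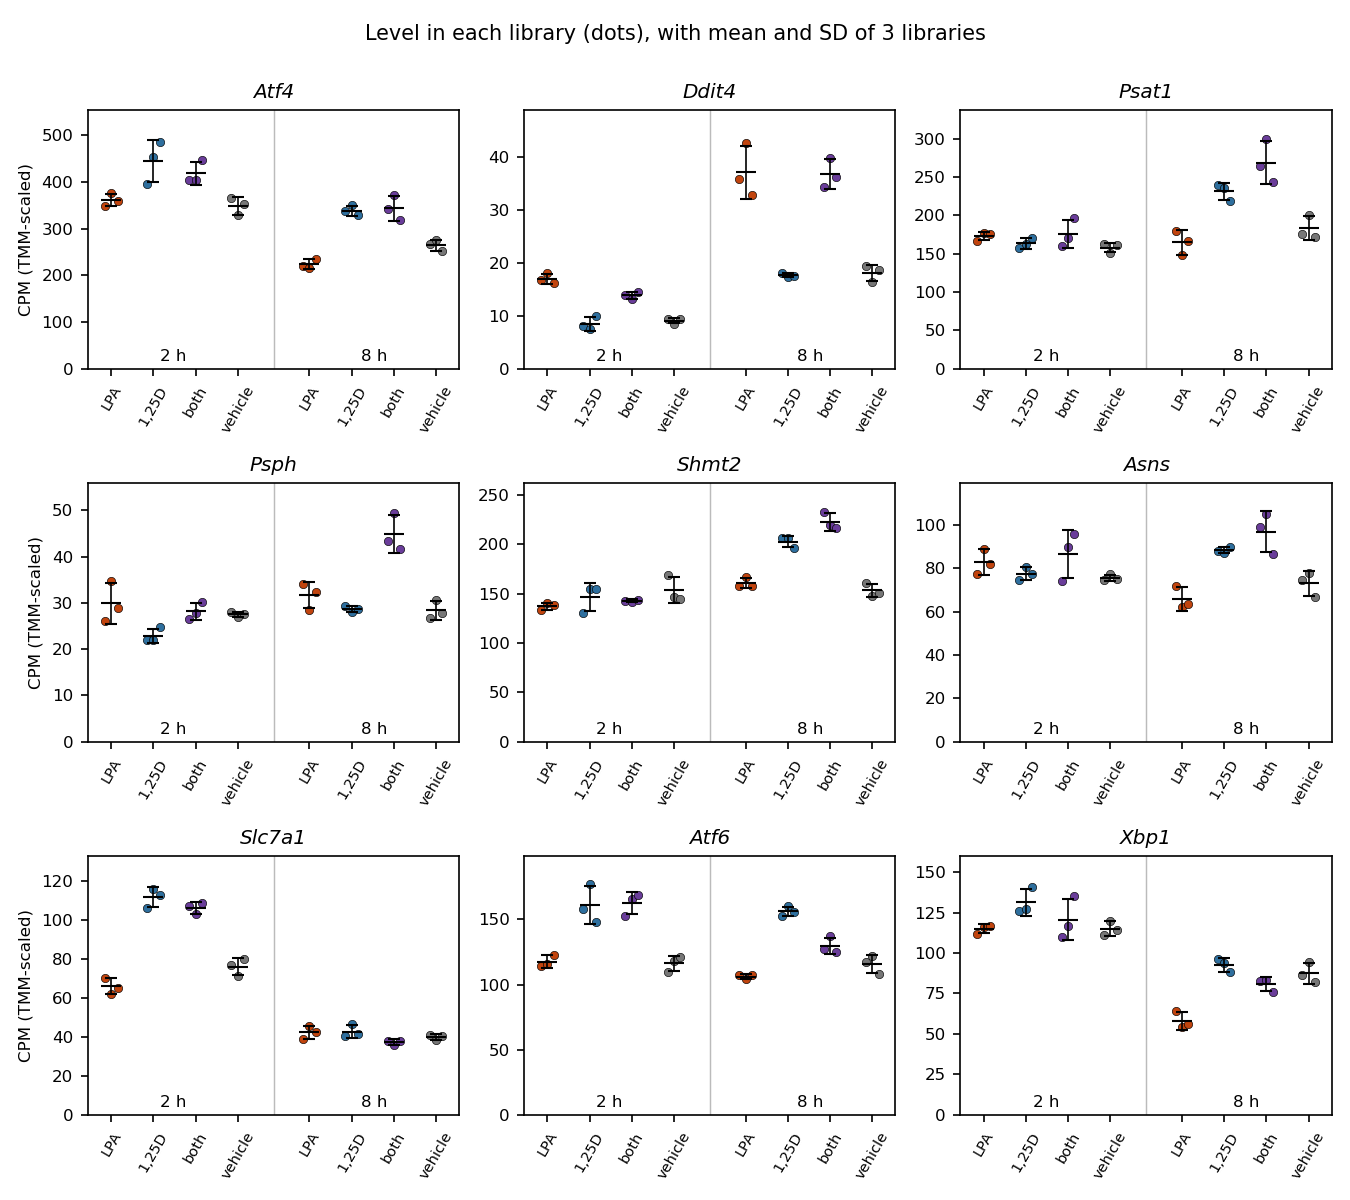
Level of 9 of the genes in each library (dots, TMM-scaled CPM), with the mean and SD of 3 libraries, by labelled treatment at 2 h (left of each panel) and 8 h (right). Ddit4 is high in the labelled LPA and both-agent groups at both times, Slc7a1 is high in the labelled 1,25D and both-agent groups at 2 h, and Psat1, Psph and Shmt2 have their highest means with both agents at 8 h.

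Enzymes of serine, glycine and asparagine synthesis rose with both agents at 8 h. Of the 8 amino acid and one-carbon enzymes, 4 rose (Asns, Psat1, Psph and Shmt2) and 0 fell, with a median log2 change of 0.34 over the 8. The 4 were 50% of the enzymes, where 9.54% of all genes rose and 7.25% fell. With both agents at 2 h 0 rose and 3 fell (37.5%), where 9.88% of all genes rose and 10% fell. Psat1, the aminotransferase of serine synthesis, had 264, 299 and 243 CPM with both agents at 8 h, 240, 235 and 219 CPM in libraries labelled 1,25D, 180, 148 and 166 CPM in those labelled LPA, and 176, 201 and 172 CPM in vehicle. Every both-agent library exceeded every vehicle library. Its log2 change was 0.55 ± 0.09 with both agents (adjusted p = 7.73e-05), a call that held with each library left out in turn. Libraries labelled 1,25D gave 0.34 ± 0.09 (adjusted p = 0.0113), and the call was lost without labelled 1,25D replicate 2 (adjusted p = 0.0567) or vehicle replicate 1 (0.0675).

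Psph, the phosphatase that completes serine synthesis, was highest with both agents at 8 h. It had 43.3, 49.4 and 41.6 CPM with both agents, 34, 28.5 and 32.3 CPM in libraries labelled LPA, 29.3, 28.1 and 28.7 CPM in those labelled 1,25D, and 26.7, 30.7 and 27.9 CPM in vehicle. The 3 both-agent libraries were above the other 9 of that time. With both agents the log2 change was 0.66 ± 0.10 (adjusted p = 3.26e-05), a call that held with each library left out in turn. It was 0.15 ± 0.10 in libraries labelled LPA (adjusted p = 0.3) and 0.01 ± 0.10 in those labelled 1,25D (adjusted p = 0.944). Shmt2, the mitochondrial enzyme that turns serine into glycine and a one-carbon unit, had 233, 219 and 216 CPM with both agents, 206, 206 and 196 CPM in libraries labelled 1,25D, 158, 167 and 158 CPM in those labelled LPA, and 161, 148 and 151 CPM in vehicle. Its log2 change was 0.54 ± 0.07 with both agents (adjusted p = 5.75e-06) and 0.40 ± 0.07 in libraries labelled 1,25D (adjusted p = 0.000372), and both calls held with each library left out in turn.

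Asns, asparagine synthetase, the textbook ATF4 target, had 98.9, 105 and 86.5 CPM with both agents at 8 h, 87.8, 87.3 and 90 CPM in libraries labelled 1,25D, 72, 62 and 63.6 CPM in those labelled LPA, and 74.6, 77.7 and 66.8 CPM in vehicle. Both-agent and labelled 1,25D libraries lay above all vehicle libraries. With both agents the log2 change was 0.41 ± 0.09 (adjusted p = 0.00228), a call that held with each library left out in turn but missed the threshold with the compared groups fitted alone (adjusted p = 0.0737). For libraries labelled 1,25D it was 0.27 ± 0.09 (adjusted p = 0.0392), and the call was lost without labelled 1,25D replicates 1, 2 or 3 (adjusted p = 0.0729, 0.0955 and 0.119) or vehicle replicates 1 or 3 (0.0891 and 0.133). The 250 bases before the start of Asns are shown because they hold an amino acid response motif next to the start. They lie at chr6:7693210-7693459 on the minus strand of GRCm38.p6 (RefSeq, written 5′ to 3′ along the gene), and capitals mark the fixed letters of the match to TGATGNAA.
Asns: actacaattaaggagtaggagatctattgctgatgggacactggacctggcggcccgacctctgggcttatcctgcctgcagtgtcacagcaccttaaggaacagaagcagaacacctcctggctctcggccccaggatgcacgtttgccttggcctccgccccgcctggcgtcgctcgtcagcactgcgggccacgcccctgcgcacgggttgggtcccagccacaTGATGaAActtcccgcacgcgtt

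The other enzymes of the list fell or did not pass. Aldh18a1, the first enzyme of proline synthesis from glutamate, had 109, 112 and 111 CPM with both agents at 2 h, against 137, 134 and 133 CPM in vehicle. It had 106, 102 and 104 CPM in libraries labelled LPA at 8 h, against 128, 116 and 122 CPM in vehicle. Neither pair of groups overlapped. Log2 changes were −0.28 ± 0.06 with both agents at 2 h (adjusted p = 0.00125) and −0.23 ± 0.06 in libraries labelled LPA at 8 h (adjusted p = 0.00989), and both calls held with each library left out in turn. The call of the libraries labelled LPA at 8 h (adjusted p = 0.156) missed the threshold with no filter on low counts. The call of the libraries labelled LPA at 8 h (adjusted p = 0.137) missed the threshold with the compared groups fitted alone. The call of both agents at 2 h (adjusted p = 0.097) missed the threshold with counts scaled from TPM. In libraries labelled 1,25D at 2 h it was −0.18 ± 0.06 (adjusted p = 0.0405), and the call was lost without labelled 1,25D replicates 1 or 2 (adjusted p = 0.108 and 0.205) or vehicle replicates 1, 2 or 3 (0.116, 0.0904 and 0.0795). It also missed the threshold with no filter (adjusted p = 0.397), the compared groups fitted alone (0.145), a block for the replicate number (0.0568) and counts scaled from TPM (0.206).

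Phgdh, the first enzyme of serine synthesis, had 186, 165 and 202 CPM with both agents at 2 h, against 218, 223 and 233 CPM in vehicle, a log2 change of −0.29 ± 0.10 (adjusted p = 0.0376), and the groups did not overlap. The call was lost without both-agent replicates 1 or 2 (adjusted p = 0.0782 and 0.204) or vehicle replicates 1, 2 or 3 (0.0673, 0.0749 and 0.117). At 8 h Phgdh had 233, 279 and 221 CPM with both agents, against 195, 218 and 194 CPM in vehicle, and the log2 change of 0.27 ± 0.10 missed the threshold (adjusted p = 0.0545). The effect was negative at 2 h and positive at 8 h, and that difference was itself called (8 h minus 2 h 0.56 ± 0.14, adjusted p = 0.00961), a call that held with each library left out in turn but missed the threshold with the compared groups fitted alone (adjusted p = 0.0601). Pycr1, the last enzyme of proline synthesis, had 18.8, 18 and 19.2 CPM with both agents at 2 h, against 22.7, 25.2 and 22.2 CPM in vehicle, a log2 change of −0.33 ± 0.11 (adjusted p = 0.0312), and the groups did not overlap. The call was lost without both-agent replicates 1, 2 or 3 (adjusted p = 0.0716, 0.11 and 0.0581) or vehicle replicates 1 or 2 (0.0612 and 0.135). Mthfd2, a mitochondrial folate enzyme, had 43.1, 34.2 and 40.4 CPM in libraries labelled LPA at 8 h, against 46.6, 51 and 45.6 CPM in vehicle, a log2 change of −0.28 ± 0.09 (adjusted p = 0.0419), and the groups did not overlap. The call was lost without labelled LPA replicates 2 or 3 (adjusted p = 0.207 and 0.0764) or vehicle replicates 1 or 2 (0.0569 and 0.205). It also missed the threshold with no filter (adjusted p = 0.081), the compared groups fitted alone (0.218) and counts scaled from TPM (0.0534). With both libraries that stood apart left out the value was 0.145.

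Of the 6 amino acid transporters, 2 rose with both agents at 2 h and 2 at 8 h, and Slc7a5 and Slc7a11 were called in neither. This was 33.3% at each time, where 9.88% of all genes rose at 2 h and 9.54% at 8 h. Slc7a1, the cationic amino acid transporter CAT-1 that carries arginine and lysine, had 106, 116 and 113 CPM in libraries labelled 1,25D at 2 h, 107, 103 and 109 CPM with both agents, 70.5, 62.3 and 65.3 CPM in libraries labelled LPA, and 76.9, 71.3 and 80.1 CPM in vehicle. The labelled 1,25D and both-agent libraries were all above the other 6. This gave a log2 change of 0.55 ± 0.07 in libraries labelled 1,25D (adjusted p = 1.02e-05) and 0.49 ± 0.07 with both agents (adjusted p = 3.26e-05), and both calls held with each library left out in turn. At 8 h Slc7a1 lay between 35.7 and 46.5 CPM in all 12 libraries, and no treatment was called. The change of the effect between the times was itself called: 8 h minus 2 h was −0.45 ± 0.10 on the log2 scale in libraries labelled 1,25D (adjusted p = 0.0102) and −0.59 ± 0.10 with both agents (adjusted p = 0.000534), and both held with each library left out in turn. The call of the libraries labelled 1,25D (adjusted p = 0.0676) missed the threshold with no filter on low counts.

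Slc38a2, the neutral amino acid transporter SNAT2, had 445, 414 and 406 CPM in libraries labelled 1,25D at 2 h, 407, 425 and 453 CPM with both agents, and 350, 376 and 371 CPM in vehicle. With both agents the log2 change was 0.23 ± 0.06 (adjusted p = 0.00452), which held with each library left out in turn but missed the threshold with no filter on low counts (adjusted p = 0.168) and the compared groups fitted alone (0.0594). The value in libraries labelled 1,25D was 0.21 ± 0.06 (adjusted p = 0.014), and the call was lost without labelled 1,25D replicate 1 (adjusted p = 0.0923) or vehicle replicate 1 (0.0948). It also missed the threshold with no filter (adjusted p = 0.306) and the compared groups fitted alone (0.0681). At 8 h the direction in the libraries labelled LPA was down: they had 228, 251 and 249 CPM, against 291, 273 and 281 CPM in vehicle, with a log2 change of −0.21 ± 0.06 (adjusted p = 0.0132) that held with each library left out in turn but missed the threshold with no filter on low counts (adjusted p = 0.192) and the compared groups fitted alone (0.179). Slc3a2, the heavy chain shared by several transporters, had 216, 227 and 228 CPM with both agents at 8 h, against 199, 187 and 189 CPM in vehicle, and the groups did not overlap. Slc3a2 thus had a log2 change of 0.22 ± 0.07 (adjusted p = 0.0199), and the call was lost without both-agent replicates 2 or 3 (adjusted p = 0.0605 and 0.0836) or vehicle replicates 2 or 3 (0.0728 and 0.0639).

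Slc1a5, which encodes the glutamine transporter ASCT2, had 42.7, 52.6 and 44.3 CPM in libraries labelled LPA at 8 h, 50.1, 47.6 and 45.3 CPM in those labelled 1,25D, 48.2, 43.3 and 48.7 CPM with both agents, and 34.8, 29.5 and 38.6 CPM in vehicle. Every treated library was above the 3 vehicle libraries, which the comparisons share. Slc1a5 had a log2 change of 0.47 ± 0.10 in libraries labelled 1,25D (adjusted p = 0.003) and 0.45 ± 0.10 with both agents (adjusted p = 0.00349), and both calls held with each library left out in turn. The call of both agents (adjusted p = 0.084) missed the threshold with the compared groups fitted alone. In libraries labelled LPA it was 0.44 ± 0.10 (adjusted p = 0.00634), and the call was lost without labelled LPA replicate 2 (adjusted p = 0.0723) or vehicle replicate 2 (0.0638). Protein-coding transcripts held 14% of the Slc1a5 counts and 1 transcript with a retained intron held 74.6%, so these sums are mostly not counts of protein-coding transcripts. Slc7a5, the large neutral amino acid transporter LAT1, and Slc7a11, the cystine transporter xCT, were called in no comparison with vehicle. Slc7a5 had 70.4 CPM in vehicle replicate 2 and 71.3 CPM in both-agent replicate 2 at 8 h, the 2 libraries that stood apart, which were its lowest values. Slc7a11 had 6.25 to 13.4 CPM, and its log2 changes were −0.51 to −0.06. Its promoter is shown because it holds 2 matches to TGATGNAA, on opposite strands (capitals), at chr3:50443614-50443863 on the minus strand.
Slc7a11: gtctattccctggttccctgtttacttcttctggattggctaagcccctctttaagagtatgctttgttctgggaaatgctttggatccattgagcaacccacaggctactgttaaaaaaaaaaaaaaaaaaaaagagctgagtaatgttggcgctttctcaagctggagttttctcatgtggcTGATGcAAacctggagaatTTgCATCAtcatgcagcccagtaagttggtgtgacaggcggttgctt

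Among the ER sensors, Atf6 rose. Atf6, which is cut in the Golgi to release a transcription factor for chaperone genes, had 158, 177 and 148 CPM in libraries labelled 1,25D at 2 h, 153, 166 and 169 CPM with both agents, 114, 116 and 123 CPM in libraries labelled LPA, and 110, 118 and 121 CPM in vehicle. At 8 h it had 153, 160 and 156 CPM in libraries labelled 1,25D, 127, 137 and 125 CPM with both agents, 107, 104 and 107 CPM in libraries labelled LPA, and 117, 122 and 108 CPM in vehicle. The libraries labelled 1,25D were above all vehicle libraries at both times. Their log2 change at 2 h was 0.47 ± 0.07 (adjusted p = 3.46e-05), their change at 8 h 0.44 ± 0.07 (adjusted p = 0.000107), and that of both agents at 2 h was 0.49 ± 0.07 (adjusted p = 1.56e-05). These 3 calls held with each library left out in turn. With both agents at 8 h the log2 change was 0.17 ± 0.07 (adjusted p = 0.0999). Both agents were lower than libraries labelled 1,25D at 8 h (log2 difference −0.27 ± 0.07, adjusted p = 0.0111), a call that was lost without both-agent replicate 1 (adjusted p = 0.0509) or labelled 1,25D replicate 2 (0.0549).

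Xbp1, the factor whose mRNA is spliced by IRE1, fell in libraries labelled LPA at 8 h. It had 64.4, 54 and 55.9 CPM in libraries labelled LPA, 96.3, 93.8 and 88 CPM in those labelled 1,25D, 82.8, 83.5 and 76.1 CPM with both agents, and 86.2, 94.6 and 81.8 CPM in vehicle. The 3 libraries labelled LPA were under the other 9 of that time. This was a log2 change of −0.59 ± 0.08 (adjusted p = 2.12e-05) that held with each library left out in turn. At 2 h it was 0.005 ± 0.08 (adjusted p = 0.984), and the difference of the effect between the times, −0.60 ± 0.11 (adjusted p = 0.00323), held with each library left out in turn. Sums over transcripts do not tell spliced from unspliced Xbp1 mRNA. Eif2ak3 (PERK) had 10.5 to 22.2 CPM, with log2 changes of −0.37 to 0.26, and Ern1 (IRE1) had 24 to 67.8 CPM, with log2 changes of −0.41 to 0.25. Neither was called in a comparison with vehicle. The lowest Ern1 value was in both-agent replicate 2 at 8 h, a library that stood apart.

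Few of the ER chaperones and folding enzymes were called against vehicle, and those called at 8 h fell. Of the 12, 0 rose and 1 fell with both agents at 8 h (8.33% lower, against 7.25% of all genes), 0 rose and 2 fell in libraries labelled 1,25D (16.7% lower, against 8.32% of all genes) and 0 rose and 3 fell in those labelled LPA (25% lower, against 5.38% of all genes). At 2 h 1 rose and 0 fell with both agents (8.33% higher, against 9.88% of all genes), 0 rose and 1 fell in libraries labelled 1,25D (8.33% lower, against 6.85% of all genes) and 0 rose and 0 fell in those labelled LPA. Hspa5 (BiP), the most used marker of ER stress, had 600, 712 and 555 CPM with both agents at 8 h, 551, 442 and 491 CPM in libraries labelled LPA, 624, 611 and 604 CPM in those labelled 1,25D, and 592, 607 and 538 CPM in vehicle. It was not called in any of the 6 comparisons with vehicle, where its log2 changes were −0.23 to 0.26. The highest, 0.26 ± 0.09 with both agents at 2 h, had an adjusted p = 0.0539. Values that miss the threshold do not show that Hspa5 was equal between the groups. Of the 15 members called in no comparison with vehicle, 10 were ER genes: Eif2ak3, Ern1, Hspa5, Hsp90b1, Canx, Pdia3, Pdia6, Dnajb9, Creld2 and Edem1. The lectin chaperone Canx had 342 to 516 CPM (log2 changes −0.13 to 0.21), Hsp90b1 460 to 689 CPM (−0.23 to 0.14), and Pdia3, the disulfide isomerase ERp57, 374 to 468 CPM (−0.15 to 0.04). Dnajb9, the BiP co-chaperone ERdj4, had 27.7 to 40.9 CPM (−0.001 to 0.27), and Creld2, a secreted ER stress protein, 43.5 to 69.2 CPM (−0.15 to 0.18). Pdia6, another disulfide isomerase, cannot be read closely, since it varied from 4.95 to 26.5 CPM with a within-group SD of 0.658 on the log2 scale, the highest of the 41 genes.

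In libraries labelled LPA at 8 h, 11 of the 12 chaperone and folding genes had a negative log2 change, with a median of −0.21, and 3 were called: Calr, Manf and Sdf2l1. Calr had 1606, 1343 and 1501 CPM in libraries labelled LPA, against 1765, 1856 and 1755 CPM in vehicle, a log2 change of −0.27 ± 0.08 (adjusted p = 0.0302). That call was lost without labelled LPA replicates 2 or 3 (adjusted p = 0.158 and 0.073) or vehicle replicate 2 (0.118). Manf, a secreted factor induced by ER stress, had 88, 69.1 and 76.9 CPM in libraries labelled LPA, against 97.1, 106 and 86.8 CPM in vehicle, and the groups overlapped. Manf had a log2 change of −0.31 ± 0.10 (adjusted p = 0.0432), and the call was lost without labelled LPA replicates 2 or 3 (adjusted p = 0.203 and 0.115) or vehicle replicates 1 or 2 (0.0724 and 0.222). It also missed the threshold with the compared groups fitted alone (adjusted p = 0.218), a block for the replicate number (0.054) and counts scaled from TPM (0.0579). With both libraries that stood apart left out the value was 0.161. Labelled LPA replicate 2, without which these calls were lost, had 4 of 19 ER genes above the mean of its group.

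Sdf2l1, an ER protein of the BiP complexes and one of the most sensitive ER stress genes, was lower in all 3 treatments at 8 h. It had 12.8, 10.2 and 12.2 CPM in libraries labelled LPA, 12.3, 10.9 and 12.2 CPM in those labelled 1,25D, 11.5, 12.1 and 11.4 CPM with both agents, and 14.7, 15.5 and 15.2 CPM in vehicle. All 9 treated libraries were under the 3 vehicle libraries, which the comparisons share. Log2 changes were −0.37 ± 0.12 in libraries labelled LPA (adjusted p = 0.0448), −0.36 ± 0.12 in those labelled 1,25D (adjusted p = 0.0382) and −0.38 ± 0.12 with both agents (adjusted p = 0.0273). None of the 3 calls held with each library left out. In libraries labelled LPA the call was lost without labelled LPA replicates 2 or 3 (adjusted p = 0.203 and 0.0818) or vehicle replicates 1, 2 or 3 (0.0572, 0.133 and 0.0567). In those labelled 1,25D it was lost without any single one of the 6 libraries (adjusted p = 0.0594 to 0.145), and with both agents it was lost without both-agent replicates 1 or 3 (adjusted p = 0.0715 and 0.0729) or vehicle replicates 2 or 3 (0.0667 and 0.0604). At 2 h Sdf2l1 was lower in libraries labelled 1,25D, with 11.5, 9.12 and 9.08 CPM, against 11.9, 12.6 and 14.6 CPM in vehicle (log2 change −0.39 ± 0.12, adjusted p = 0.0277), and the call was lost without labelled 1,25D replicates 2 or 3 (adjusted p = 0.136 and 0.111) or vehicle replicates 2 or 3 (0.0502 and 0.153).

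The remaining called folding genes were Pdia4 and Dnajc3. Pdia4, a protein disulfide isomerase, had 166, 164 and 162 CPM in libraries labelled 1,25D at 8 h, against 197, 204 and 189 CPM in vehicle, and the groups did not overlap. The change was −0.27 ± 0.08 on the log2 scale (adjusted p = 0.0256), and the call was lost without labelled 1,25D replicates 1, 2 or 3 (adjusted p = 0.0529, 0.0726 and 0.0848) or vehicle replicates 1 or 2 (0.0585 and 0.118). Dnajc3 (p58IPK), a BiP co-chaperone that inhibits eIF2α kinases, was the 1 folding gene that rose, with both agents at 2 h. It had 104, 117 and 123 CPM with both agents, against 83.2, 101 and 98.9 CPM in vehicle, a log2 change of 0.28 ± 0.09 (adjusted p = 0.0224), and the groups did not overlap. The call was lost without both-agent replicates 2 or 3 (adjusted p = 0.0786 and 0.106) or vehicle replicate 1 (0.189).

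Part of the chaperone promoters hold the sequence through which ATF6 and XBP1 are known to act. The ER genes were chosen by name as genes of that response, so the sites describe them and are not independent support. RefSeq promoters (GRCm38.p6) matched 37 of the 41 genes, and Atf6, Slc7a5, Manf and Slc1a5 had no entry. The 250 bases before the start were searched on both strands. The ER stress element, CCAAT and CCACG separated by 9 bases, was found in 7 of 17 ER genes and 0 of 20 ATF4-type genes, and in 0.113% of all 32817 promoters. The 8 sites follow, with the fixed letters in capitals, and Hsp90b1 has 2.
Hspa5, chr2:34772025-34772043 (plus strand): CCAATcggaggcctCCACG
Hsp90b1, chr10:86705638-86705656 (minus strand): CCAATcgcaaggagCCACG
Hsp90b1, chr10:86705533-86705551 (plus strand): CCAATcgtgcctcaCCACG
Calr, chr8:84847075-84847093 (plus strand): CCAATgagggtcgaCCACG
Canx, chr11:50325800-50325818 (minus strand): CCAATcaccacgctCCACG
Pdia6, chr12:17266491-17266509 (plus strand): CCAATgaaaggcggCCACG
Dnajc3, chr14:118937827-118937845 (plus strand): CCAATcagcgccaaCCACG
Creld2, chr15:88819520-88819538 (minus strand): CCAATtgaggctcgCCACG

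The Hspa5 promoter is given whole because its element lies 47 to 65 bases before the start, the nearest of the 8. It covers chr2:34771840-34772089 on the plus strand, with the fixed letters of the element in capitals.
Hspa5: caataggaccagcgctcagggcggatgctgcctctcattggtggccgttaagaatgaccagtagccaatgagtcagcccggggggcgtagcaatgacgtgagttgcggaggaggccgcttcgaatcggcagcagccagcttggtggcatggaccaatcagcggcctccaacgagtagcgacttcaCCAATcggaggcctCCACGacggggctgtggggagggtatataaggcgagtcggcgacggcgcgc

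The amino acid response motif TGATGNAA, the core letters of the composite site that ATF4 binds with a C/EBP partner, was found in 5 of 20 ATF4-type genes (Asns, Chac1, Pycr1, Slc7a11 and Vldlr) and 1 of 17 ER genes (Herpud1), and in 3.45% of all promoters. Of the 6 genes with this motif, Asns rose at 8 h with both agents and in libraries labelled 1,25D, Pycr1 fell at 2 h and Herpud1 at 8 h with both agents, and Chac1, Slc7a11 and Vldlr were called in no comparison with vehicle. The element TGACGTGG, to which ATF6 and XBP1 also bind, was found in 0 members and in 0.564% of all promoters. A match describes letters in this window and is not evidence of binding.

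**Figure D4:**
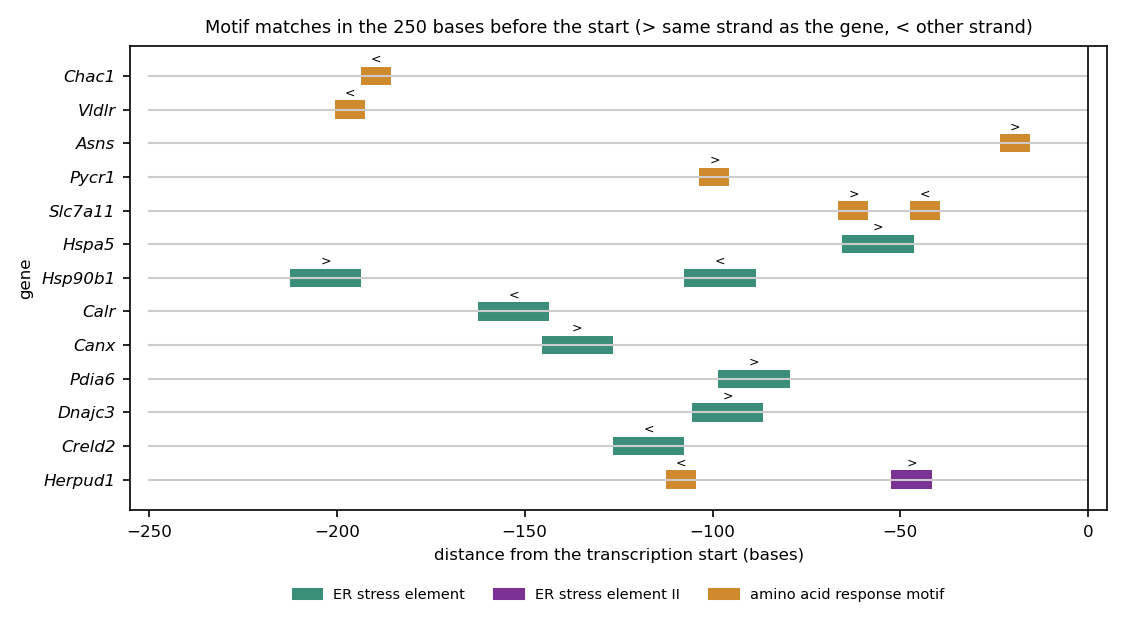
Matches to the amino acid response motif and to ER stress elements in the 250 bases before the transcription start (x axis, bases) of the genes that have one (rows, ATF4-type genes above). The symbol over a bar gives the strand. The ER stress element is in 7 ER genes and the amino acid response motif in 5 ATF4-type genes and Herpud1.

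Genes of ER-associated degradation, which returns misfolded proteins to the cytosol, were lower at 8 h where they were called. Sel1l, the scaffold of the HRD1 ubiquitin ligase, had 76.1, 85.3 and 81.7 CPM in libraries labelled 1,25D, 82.8, 76.6 and 77.1 CPM with both agents, 88.7, 90.1 and 92.9 CPM in libraries labelled LPA, and 94.1, 93.2 and 92.3 CPM in vehicle. The libraries labelled 1,25D and those with both agents were all under vehicle. The log2 change was −0.24 ± 0.06 with both agents (adjusted p = 0.00575), which held with each library left out in turn but missed the threshold with no filter on low counts (adjusted p = 0.133), the compared groups fitted alone (0.105) and both libraries that stood apart left out (0.053). The libraries labelled 1,25D gave −0.20 ± 0.06 (adjusted p = 0.0232), and the call was lost without labelled 1,25D replicates 1 or 3 (adjusted p = 0.131 and 0.059) or vehicle replicates 1 or 2 (0.0597 and 0.0839). Edem1, a lectin that passes glycoproteins on for degradation, had 25.6 to 47.5 CPM and was not called against vehicle, at log2 changes of −0.25 to 0.20. Herpud1, an ER membrane protein induced by both arms of the response, had 116, 139 and 116 CPM with both agents at 8 h, against 144, 154 and 141 CPM in vehicle, and the groups did not overlap. The change was −0.25 ± 0.08 on the log2 scale (adjusted p = 0.0474), and the call was lost without both-agent replicates 1 or 3 (adjusted p = 0.169 and 0.161) or vehicle replicates 1, 2 or 3 (0.076, 0.148 and 0.056). The Herpud1 promoter is shown because it was the 1 member promoter with matches to both kinds of motif, the amino acid response motif and the ER stress element II (ATTGG and CCACG separated by 1 base), which 0.0305% of all promoters hold. It lies at chr8:94386179-94386428 on the plus strand, with the fixed letters of both in capitals.
Herpud1: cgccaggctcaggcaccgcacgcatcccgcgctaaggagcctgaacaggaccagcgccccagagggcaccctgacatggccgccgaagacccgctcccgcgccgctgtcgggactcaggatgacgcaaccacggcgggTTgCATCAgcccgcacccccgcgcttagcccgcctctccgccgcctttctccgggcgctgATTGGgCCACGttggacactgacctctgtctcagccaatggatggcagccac

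Both agents together differed from the libraries labelled LPA in about as many members as not. At 8 h, 18 members were higher with both agents than in libraries labelled LPA and 3 lower, 51.2% of the 41 (all genes 22.9%, 14% higher and 8.91% lower). Of the 8 enzymes, 7 were higher, with a median log2 difference of 0.46 over the 8, against −0.04 over all genes. The largest difference of an enzyme was that of Psat1, 0.71 ± 0.09 (adjusted p = 6.26e-06), and Atf4 differed by 0.62 ± 0.08 (adjusted p = 5.05e-06). Of the ER genes, 7 were higher and 3 lower. Manf, at 109, 117 and 98.5 CPM with both agents against 88, 69.1 and 76.9 CPM in libraries labelled LPA, differed by 0.47 ± 0.10 (adjusted p = 0.00155), and Xbp1 by 0.48 ± 0.08 (adjusted p = 0.000241). These 4 differences held with each library left out in turn. The chaperones Hspa5, Calr, Canx and Creld2 were called higher too, and each was lost without either both-agent replicate 2 (adjusted p = 0.118, 0.223, 0.134 and 0.193) or without labelled LPA replicate 2 (0.0941, 0.155, 0.137 and 0.145). Without the 2 libraries that stood apart, 12 members were higher and 0 lower, and of all genes 1505 were higher and 941 lower.

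Against the libraries labelled 1,25D, both agents differed in fewer members. At 8 h, 4 were higher and 3 lower, 17.1% of the 41 (all genes 9.18%, 5.74% higher and 3.43% lower). Ddit4 was higher with both agents by 1.06 ± 0.11 (adjusted p = 2.62e-07) and Psph by 0.64 ± 0.10 (adjusted p = 7.97e-05), and these 2 held with each library left out in turn. The other 5, Ppp1r15a, Phgdh, Slc38a2, Ern1 and Atf6, were each lost without at least 1 library, and the count of 7 became 2 to 5 with single libraries left out (fewest without both-agent replicate 1 or labelled 1,25D replicate 2). Over all genes the count was then 886 to 1936, against 1507 in the main fit. At 2 h the 1 member called was Ddit4, higher with both agents by 0.70 ± 0.11 (adjusted p = 0.000919), where 0.767% of all genes were called (0.609% higher and 0.158% lower). Both agents against libraries labelled LPA at 2 h gave 7 members higher and 1 lower (19.5%, all genes 18.7%, 9.22% higher and 9.48% lower). Of these, Slc7a1 (0.69 ± 0.07, adjusted p = 4.01e-07), Atf6 (0.47 ± 0.07, adjusted p = 3.2e-05), Slc38a2 (0.30 ± 0.06, adjusted p = 0.00053) and Slc3a2 (0.27 ± 0.07, adjusted p = 0.00513) held with each library left out in turn. The call of Slc3a2 (adjusted p = 0.0738) missed the threshold with no filter on low counts.

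Whether the effect of both agents together differed from the sum of the single effects was tested as an interaction on the log2 scale (both agents − LPA − 1,25D + vehicle). A positive value can also come from a fall with a single agent that was smaller with both, as for Calr and Xbp1 at 8 h. At 2 h 0 members were called, 1 had an unadjusted p under 0.05 and 0.0365% of all genes were called (0.0244% positive and 0.0122% negative), and DESeq2 called 0 members. At 8 h 5 members were called, all positive (12.2%, all genes 7.68%, 4.06% positive and 3.62% negative). They were Phgdh (0.49 ± 0.14, adjusted p = 0.0415), Psph (0.49 ± 0.14, adjusted p = 0.0424), Xbp1 (0.39 ± 0.11, adjusted p = 0.046), Calr (0.40 ± 0.11, adjusted p = 0.0439) and Pdia4 (0.37 ± 0.11, adjusted p = 0.0483). None held: each was lost without 8 or 9 of the 12 libraries in turn (adjusted p up to 0.189) and without both libraries that stood apart (adjusted p = 0.32 to 0.368). With single libraries left out the count was 0 to 16, and it was highest without labelled LPA replicate 1. Over all genes the count was then 30 to 4203, and 3703 without labelled LPA replicate 1, against 1262 in the main fit. One of those that stood apart is in each of the both-agent and vehicle groups, which enter the interaction with the same sign.

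The libraries labelled LPA and labelled 1,25D differed from each other in 13 members at 8 h (31.7%, all genes 17.6%, 9.3% higher and 8.27% lower), of which 1 was higher and 12 were lower in libraries labelled LPA. The 1 higher gene was Ddit4 (1.07 ± 0.11, adjusted p = 1.12e-07). The lower ones with the largest differences were Xbp1 (−0.67 ± 0.08, adjusted p = 2.01e-06), Chac1, Atf4 and Atf6 (−0.56 ± 0.07, adjusted p = 1.87e-06), followed by Psat1 (−0.49 ± 0.09, adjusted p = 0.000273). Of the 8 enzymes 5 were lower: Asns, Psat1, Shmt2, Mthfd2 and Aldh18a1. These calls held with each library left out in turn. The call of Aldh18a1 (adjusted p = 0.155) missed the threshold with no filter on low counts. Of the 13 calls, the 1 that did not hold with each library left out was that of Hspa5 (−0.31 ± 0.09, adjusted p = 0.021), which was lost without labelled 1,25D replicates 1 or 2 (adjusted p = 0.0516 and 0.0504) or labelled LPA replicates 2 or 3 (0.125 and 0.0669). At 2 h 3 members were higher and 9 lower in libraries labelled LPA (29.3%, all genes 18.1%, 9.41% higher and 8.65% lower). Of the 6 transporters 4 were lower then, led by Slc7a1 (−0.76 ± 0.07, adjusted p = 9.99e-08). The sum of the 5 osteocyte markers was 94.4 to 97.4% Pdpn and that of the 5 osteoblast markers 97.6 to 99.2% Col1a1, so the sums follow those single genes. In the summed osteocyte markers, the libraries labelled LPA at 8 h had 53.2 to 62.7 CPM, those labelled 1,25D 81.5 to 86.9 CPM, those with both agents 89.8 to 102 CPM and vehicle 58.5 to 67.8 CPM. The summed osteoblast markers were 4520 to 6020 CPM in libraries labelled LPA, 4360 to 4650 CPM in those labelled 1,25D, 2480 to 5090 CPM with both agents and 1690 to 4120 CPM in vehicle, with the lowest values in the 2 libraries that stood apart. Without Col1a1 the osteoblast sum was 59.9 to 77.5 CPM in libraries labelled LPA, 52.6 to 57.7 CPM in those labelled 1,25D, 25 to 41.1 CPM with both agents and 40.4 to 62.5 CPM in vehicle. The mitochondrial share at 8 h was 11.79 to 14.04% in libraries labelled LPA, 11.87 to 13.09% in those labelled 1,25D, 12.19 to 12.74% with both agents and 10.15 to 16.92% in vehicle. The part of these in the gene differences was not tested.

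In vehicle, the ATF4-type genes that differed between the times were lower at 8 h, with the exception of Ddit4. In the vehicle libraries, 1 of 22 ATF4-type genes was higher and 7 were lower at 8 h than at 2 h (median log2 difference −0.21, against −0.02 over all genes), and 0 of 19 ER genes were higher and 2 lower. In all, 24.4% of the members were called, against 14.6% of all genes (5.88% higher and 8.69% lower). Of the 6 transporters 4 were lower at 8 h: Slc7a1 (−0.93 ± 0.07, adjusted p = 1.32e-08), Slc7a5 (−0.75 ± 0.16, adjusted p = 0.00266), Slc38a2 (−0.38 ± 0.06, adjusted p = 7.51e-05) and Slc3a2 (−0.35 ± 0.07, adjusted p = 0.000747). Slc7a1 had 41.1, 38.3 and 40.4 CPM at 8 h, against 76.9, 71.3 and 80.1 CPM at 2 h. Atf4 (−0.40 ± 0.08, adjusted p = 0.000791), Chac1 (−0.60 ± 0.14, adjusted p = 0.00538) and Xbp1 (−0.39 ± 0.08, adjusted p = 0.00197) were also lower at 8 h. Ddit4 was the 1 member that was higher, with 19.3, 16.3 and 18.6 CPM at 8 h, against 9.35, 8.46 and 9.47 CPM at 2 h (0.99 ± 0.11, adjusted p = 1.95e-06). These 8 calls held with each library left out in turn. The calls of Slc7a5 (adjusted p = 0.0925), Slc3a2 (0.0639), Atf4 (0.054), Chac1 (0.101) and Xbp1 (0.0702) missed the threshold with the compared groups fitted alone. The calls of Mthfd2 and Ern1 did not hold with each library left out. Time after the start of treatment and any difference in harvest between the times cannot be told apart.

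The effect of a treatment against vehicle was also compared between the times, as the 8 h effect minus the 2 h effect. With both agents 6 members had a more positive effect at 8 h and 3 a more negative one (22%, all genes 9.68%, 5.57% higher and 4.11% lower). Of the 8 enzymes 5 had a more positive effect: Psat1, Phgdh, Psph, Shmt2 and Aldh18a1. Shmt2 (0.64 ± 0.10, adjusted p = 0.000112) had log2 changes of −0.11 ± 0.07 at 2 h and 0.54 ± 0.07 at 8 h, and Psph (0.62 ± 0.14, adjusted p = 0.00463) of 0.03 ± 0.10 at 2 h and 0.66 ± 0.10 at 8 h. The members called in libraries labelled 1,25D were Shmt2 (0.47 ± 0.10, adjusted p = 0.0063) and Slc7a1 (4.88%, all genes 4.17%, 1.33% higher and 2.84% lower). In those labelled LPA they were Slc1a5 (0.64 ± 0.15, adjusted p = 0.012), Ppp1r15a (0.40 ± 0.12, adjusted p = 0.0424) and Xbp1 (7.32%, all genes 6.76%, 3.76% higher and 3% lower). The Shmt2 calls and the Psph call held with each library left out in turn. The calls of Shmt2 in libraries labelled 1,25D (adjusted p = 0.0531) and Slc1a5 (0.0672) missed the threshold with the compared groups fitted alone. The calls of Slc1a5 (adjusted p = 0.0745) and Ppp1r15a (0.722) in libraries labelled LPA missed the threshold with counts scaled from TPM. With both agents those of Psat1 (0.325) and Aldh18a1 (0.587) missed it too. The 3 treatments share the vehicle libraries of both times.

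Other genes of these pathways, a list of 67 of which 66 were tested, were described in the same way. With both agents at 8 h, 14 rose (21.2%, against 9.54% of all genes) and 2 fell (3.03%, against 7.25%): 5 rose and 0 fell among the 14 tested ISR factors and targets, 4 and 0 among the 10 eIF2 factors and kinases, 3 and 0 among the 12 tRNA synthetases, and 2 and 2 among the 30 ER stress genes. Nupr1, a stress-induced chromatin protein and ATF4 target, had 159, 213 and 143 CPM with both agents, against 62.5, 78.9 and 71.1 CPM in vehicle (log2 change 1.28 ± 0.14, adjusted p = 8.6e-07). Eif4ebp1, the translational repressor 4E-BP1 and an ATF4 target, had 211, 254 and 182 CPM with both agents, against 120, 130 and 120 CPM in vehicle (0.81 ± 0.10, adjusted p = 4.51e-06). Stc2, the secreted glycoprotein stanniocalcin 2, had 2.41, 3.22 and 3.21 CPM with both agents, 3.19, 3.07 and 2.56 CPM in libraries labelled 1,25D, 1.14, 1.25 and 1.23 CPM in those labelled LPA, and 1.27, 1.52 and 0.838 CPM in vehicle, and was called with both agents (1.29 ± 0.24, adjusted p = 0.000478) and in libraries labelled 1,25D (1.28 ± 0.24, adjusted p = 0.000793). No treated library of these called groups overlapped vehicle, and the 4 calls held with each library left out in turn. Mbtps1, the site-1 protease that cuts ATF6, fell with both agents (−0.37 ± 0.05, adjusted p = 2.42e-05) and in libraries labelled 1,25D (−0.39 ± 0.05, adjusted p = 2.93e-05), and both calls held with each library left out in turn. The call of both agents (adjusted p = 0.0601) missed the threshold with counts scaled from TPM. Edem2, which trims glycoproteins for degradation, was lower with both agents (−0.27 ± 0.08, adjusted p = 0.0176), and the call was lost without vehicle replicates 1 or 3 (adjusted p = 0.0516 and 0.0658) or both-agent replicate 3 (0.0717).

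In libraries labelled 1,25D at 8 h 8 of these genes rose (12.1%, against 7.89% of all genes) and 6 fell (9.09%, against 8.32%), and all that fell were among the ER stress genes. Creb3l1 (OASIS), an ER-membrane transcription factor of bone matrix secretion, had 162, 164 and 148 CPM in libraries labelled 1,25D, against 81.1, 41.6 and 93.2 CPM in vehicle (1.13 ± 0.23, adjusted p = 0.00149), and the lowest value was in the vehicle library that stood apart. The call held with each library left out in turn but missed the threshold with the compared groups fitted alone (adjusted p = 0.0641). Atf6b, the ATF6 paralogue, had 53.3, 51.5 and 49.9 CPM in libraries labelled 1,25D, against 34.4, 17.6 and 41.6 CPM in vehicle (0.72 ± 0.23, adjusted p = 0.0353), and that call was lost without vehicle replicates 1 or 2 (adjusted p = 0.0507 and 0.189) or labelled 1,25D replicates 1, 2 or 3 (0.0982, 0.0735 and 0.0742). Os9, a lectin of ER-associated degradation, fell (−0.43 ± 0.08, adjusted p = 0.00117) and held with each library left out in turn, and Sil1, a BiP exchange factor, fell (−0.41 ± 0.10, adjusted p = 0.00715) and was lost without vehicle replicate 2 (adjusted p = 0.0544). In libraries labelled LPA at 8 h 4 rose (6.06%, against 6.62% of all genes) and 5 fell (7.58%, against 5.38%). Selenos (−0.39 ± 0.10, adjusted p = 0.00901), the transaminase Got1 (−0.34 ± 0.08, adjusted p = 0.00557) and the cysteinyl-tRNA synthetase Cars (−0.27 ± 0.07, adjusted p = 0.0142) fell, and these held with each library left out in turn. The call of Cars (adjusted p = 0.118) missed the threshold with no filter on low counts. The calls of Selenos (adjusted p = 0.0963), Got1 (0.0961) and Cars (0.113) missed the threshold with the compared groups fitted alone. The call of Cars (adjusted p = 0.174) missed the threshold with counts scaled from TPM. Nupr1 rose by 0.51 ± 0.14 (adjusted p = 0.0189), and the call was lost without vehicle replicate 1 (adjusted p = 0.105) or labelled LPA replicate 1 (0.109). Ppp1r15b, the constitutive eIF2α phosphatase subunit CReP, rose by 0.66 ± 0.18 (adjusted p = 0.0169), and the call was lost without vehicle replicate 2 (adjusted p = 0.156) or labelled LPA replicate 2 (0.153). Wfs1, an ER membrane protein, rose by 0.52 ± 0.16 (adjusted p = 0.0396), and the call was lost without vehicle replicate 2 (adjusted p = 0.276) or labelled LPA replicates 2 or 3 (0.143 and 0.103).

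At 2 h 9 of the 66 genes rose (13.6%, against 9.88% of all genes) and 10 fell (15.2%, against 10%) with both agents. In libraries labelled 1,25D 0 rose, against 7.06% of all genes, and 4 fell (6.06%, against 6.85%), and in those labelled LPA 0 rose and 0 fell. With both agents Eif2s1, which encodes eIF2α, rose (0.35 ± 0.08, adjusted p = 0.0038), as did Cebpg, a dimer partner of ATF4 (0.30 ± 0.08, adjusted p = 0.00642). The transaminase Gpt2 (−0.40 ± 0.08, adjusted p = 0.00085) and the ER oxidase Ero1lb (−0.39 ± 0.09, adjusted p = 0.00401) fell. These 4 calls held with each library left out in turn. The calls of Cebpg (adjusted p = 0.0926) and Ero1lb (0.0585) missed the threshold with no filter on low counts. The calls of Eif2s1 (adjusted p = 0.222) and Cebpg (0.106) missed the threshold with counts scaled from TPM. The ER oxidase Ero1l was called higher (0.31 ± 0.10, adjusted p = 0.0236), which was lost without vehicle replicate 1 (adjusted p = 0.15) or both-agent replicates 1 or 3 (0.0615 and 0.0832), and the glycine transporter Slc6a9 lower (−0.39 ± 0.13, adjusted p = 0.041), which was lost without vehicle replicates 1 or 2 (adjusted p = 0.191 and 0.0851) or both-agent replicates 1, 2 or 3 (0.0943, 0.143 and 0.0651). With counts scaled from TPM the log2 change of Ero1l was 0.067 (adjusted p = 0.791) and that of Slc6a9 −0.22 (0.459). Gpt2 also fell in libraries labelled 1,25D (−0.33 ± 0.08, adjusted p = 0.00651), a call that held with each library left out in turn. Ero1lb (−0.35 ± 0.09, adjusted p = 0.0124) was lost without labelled 1,25D replicate 2 (adjusted p = 0.0622), and Eif2b4, a subunit of the eIF2 exchange factor (−0.33 ± 0.09, adjusted p = 0.0114), was lost without vehicle replicate 1 (adjusted p = 0.0548) or labelled 1,25D replicate 2 (0.0758). This Ero1lb call also missed the threshold with no filter (adjusted p = 0.143) and the compared groups fitted alone (0.061). That of Eif2b4 missed it with counts scaled from TPM (0.165).

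Most ER genes shifted to the same side in the libraries that stood apart, with Eif2ak3, Ern1 and Edem1 among those on the other side. In both-agent replicate 2 and vehicle replicate 2 at 8 h, the 2 libraries that stood apart, 14 and 15 of 19 ER genes were above the mean of their group, against 4 in both-agent replicate 3 and 5 in vehicle replicate 3. In the libraries labelled LPA at 8 h the count was 14 in replicate 1 and 4 in replicate 2, and in those labelled 1,25D it was 12, 11 and 9. For the ATF4-type genes the same libraries had 15 and 11 of 22 above the mean of their group. The median deviation of the ER genes was −0.10 in labelled LPA replicate 2, 0.13 in both-agent replicate 2 and 0.08 in vehicle replicate 2, on the log2 scale. Eif2ak3 and Ern1 deviated the other way, by 0.24 and 0.22 in labelled LPA replicate 2, by −0.34 and −0.21 in both-agent replicate 2, and by −0.44 and −0.35 in vehicle replicate 2. This was not a trait of the sensors: in the same order of libraries the sensor Atf6 deviated by −0.024, 0.086 and 0.076. Edem1 (0.153, −0.165 and −0.323) and the ATF4-type genes Sesn2 (0.241, −0.514 and −0.619) and Slc7a5 (0.223, −0.403 and −0.36) deviated like Eif2ak3. The median shifts are of the order of the ER gene changes against vehicle at 8 h, whose medians were −0.04 to −0.18.

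**Figure D5:**
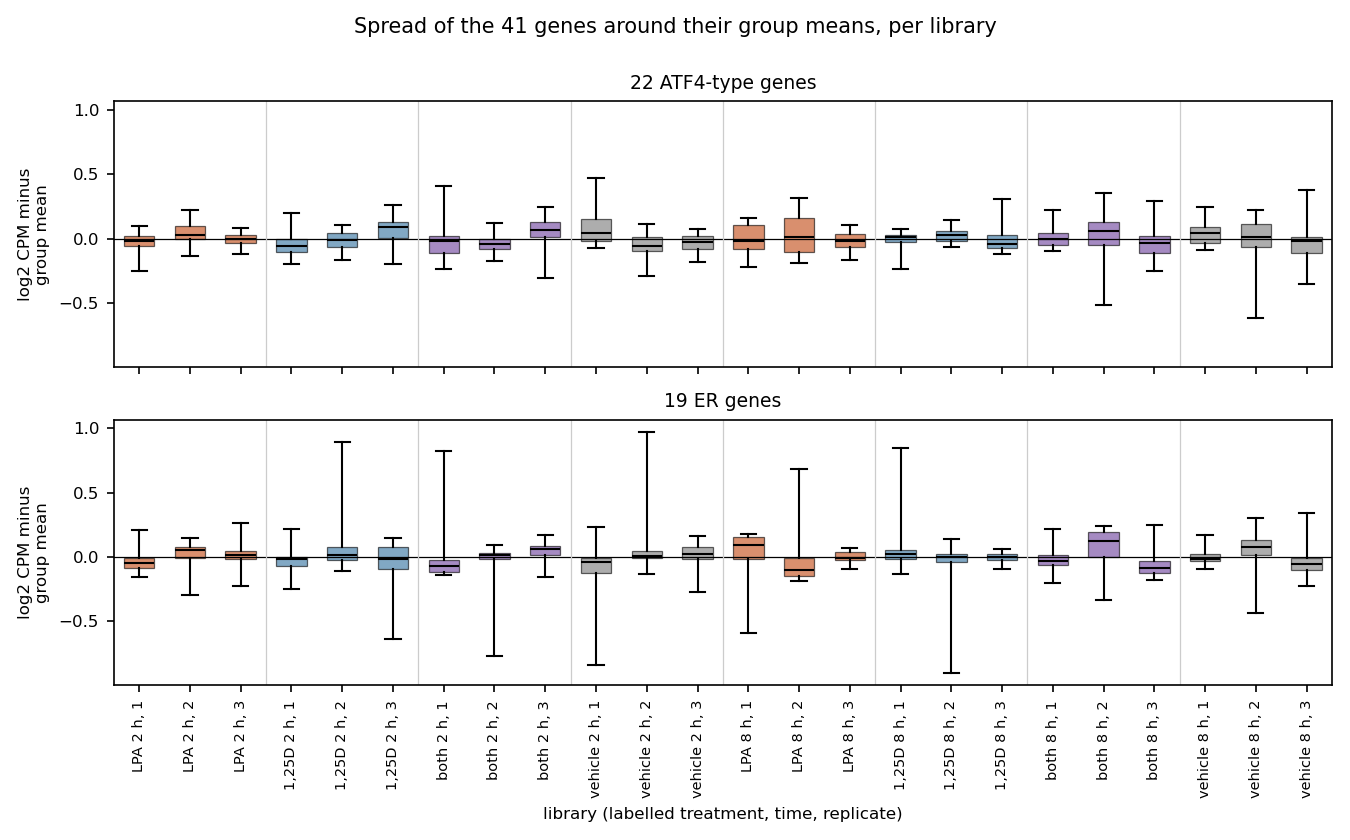
Deviation of each gene from the mean of its group (log2 CPM, y axis) in each of the 24 libraries (x axis), for the 22 ATF4-type genes (upper panel) and the 19 ER genes (lower panel). Boxes span the quartiles with the median, and whiskers reach the extremes. In the lower panel the boxes of both-agent and vehicle replicate 2 at 8 h lie mostly above 0, and that of labelled LPA replicate 2 at 8 h mostly under 0.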

How the data were processed

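RNA of 24 libraries was extracted with RNeasy columns and prepared for sequencing with the DNBSEQ Fast RNA library kit (labels' protocols). The authors deposited 1 table per library with an estimated count and a TPM value for each of 139145 transcripts, per the file headers. The genome build was mm39 per the submitters' processing notes, and the sources used here name no quantification tool. Gene names were taken from GENCODE M21, which matched 135078 transcripts and 99.45 to 99.6% of the counts. The estimated counts were summed per gene and rounded to whole numbers. Library totals were alike, at 32.96 to 33.84 M counts, but libraries of a group differed more in some groups than in others: the chi-square per degree of freedom between 2 libraries was 6.54 to 8.11 in those labelled 1,25D at 8 h and 24.9 to 118 in vehicle at 8 h.

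Groups came from the library titles. Gene sums were tested with edgeR 4.0.16 (R 4.3.3): TMM scaling, filterByExpr with a minimum count of 10, and a robust quasi-likelihood fit of all 8 groups with no covariate. Benjamini-Hochberg adjustment ran over all 16424 genes tested, with a threshold of 0.05. CPM are TMM-scaled, and an error after ± is an SE for a log2 change and an SD for a mean. There were 18 comparisons: 6 with vehicle, 6 between agents, 2 interactions, 8 h against 2 h in vehicle, and 3 differences of an effect between the times. The fit was tested on simulated data. All 41 genes were to be named, and of the other pathway genes the 3 largest rises and 3 largest falls called in a comparison with vehicle at a mean of 1 CPM or more. The genes, the lists and the tests were chosen with earlier results of these data known. The alternatives were median-of-ratios scaling, no filter, DESeq2 1.42.0, a fit of only the groups compared, a block for the replicate number, counts scaled from TPM, each library left out in turn and, chosen after seeing the data, both libraries left out that stood apart. Libraries of a group differed beyond sampling noise, so none was counted as a duplicate. Promoters came from RefSeq (GRCm38.p6) and were used for sequence only, since the counts are on another build.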

Additional observations from a re-analysis of the deposited data

Results flagged for a closer look

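The tests of a difference between effects called 19 values in 13 of the 41 genes. The interaction of the agents at 8 h was positive for Phgdh (0.493), Psph (0.489), Calr (0.403), Xbp1 (0.393) and Pdia4 (0.373) on the log2 scale, in edgeR's quasi-likelihood test. For Psph the log2 change against vehicle was 0.66 ± 0.10 with both agents, 0.15 ± 0.10 in libraries labelled LPA and 0.01 ± 0.10 in those labelled 1,25D. For Calr it was −0.01 ± 0.08 with both agents, −0.27 ± 0.08 in libraries labelled LPA and −0.14 ± 0.08 in those labelled 1,25D. None of the 5 held with single libraries left out.

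The effect against vehicle differed between 8 h and 2 h (8 h minus 2 h, log2) in libraries labelled LPA for Slc1a5 (0.639), Xbp1 (−0.596) and Ppp1r15a (0.396). In libraries labelled 1,25D it differed for Shmt2 (0.465) and Slc7a1 (−0.453). With both agents the difference was positive for Shmt2 (0.644), Psph (0.622), Phgdh (0.557), Ppp1r15a (0.44), Psat1 (0.404) and Aldh18a1 (0.26), and negative for Slc7a1 (−0.585), Atf6 (−0.319) and Slc38a2 (−0.314). The Ppp1r15a call in libraries labelled LPA was lost without 8 of the 12 libraries in turn (adjusted p = 0.0556 to 0.16). With both agents the Psat1 call was lost without 8 of the 12 libraries in turn (adjusted p = 0.0814 to 0.123), that of Aldh18a1 was lost without 11 of the 12 libraries in turn (adjusted p = 0.056 to 0.137), that of Atf6 was lost without 7 of the 12 libraries in turn (adjusted p = 0.0551 to 0.115) and that of Ppp1r15a was lost without both-agent 2 h replicate 2 (adjusted p = 0.0576) or vehicle 2 h replicate 1 (0.0674). The others held with each library left out in turn. The calls of Slc7a1 in libraries labelled 1,25D (adjusted p = 0.0676) and Slc38a2 with both agents (0.247) missed the threshold with no filter on low counts. The calls of Slc1a5 in libraries labelled LPA (adjusted p = 0.0672), Shmt2 in libraries labelled 1,25D (0.0531), Phgdh with both agents (0.0601) and Slc38a2 with both agents (0.0681) missed the threshold with the compared groups fitted alone. The call of Slc1a5 in libraries labelled LPA (adjusted p = 0.0745) missed the threshold with counts scaled from TPM. So did Ppp1r15a in libraries labelled LPA (log2 0.13, adjusted p = 0.722). With both agents Ppp1r15a (0.454), Psat1 (0.325), Aldh18a1 (0.587) and Atf6 (0.0755) missed it as well. In the same order, these calls also missed it with no filter (adjusted p = 0.0921, 0.0859, 0.0788, 0.489 and 0.266). With the compared groups alone the values were 0.0947, 0.0877, 0.172, 0.172 and 0.132.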

How the results depend on the processing

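Of the 140 calls of a member, 0 changed direction in any alternative. The number that missed the threshold was 3 with median-of-ratios scaling, 0 with DESeq2, 44 with no filter on low counts, 39 with counts scaled from TPM, 64 with the compared groups alone, 16 with the replicate block and 34 without both libraries that stood apart. The compared groups alone leave fewer libraries to estimate the spread, but the cause was not tested for this or any other setting. Counts over all genes moved as well. With the compared groups alone they rose in some comparisons and fell in others. Both agents against labelled LPA at 2 h gave 4039, against 3072 in the main fit. Labelled LPA against vehicle at 8 h gave 565, against 1971. Libraries of a group differed most in vehicle at 8 h (chi-square per degree of freedom 24.9 to 118), and the part of this was not tested. For the interaction at 8 h the counts over all genes were 1262 in the main fit, 3094 with no filter and 3451 with DESeq2. They were 13 with the compared groups alone, 440 with counts scaled from TPM and 25 without both libraries that stood apart. Counts of members that moved by more than 1.5 times follow.

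With no filter, 2 members were called in libraries labelled LPA at 2 h, 8 for the interaction at 8 h and 5 for the change of the labelled LPA effect between the times. Over all genes 373 were then called in libraries labelled LPA at 2 h (129 in the main fit) and 3065 for that change (1110). DESeq2 called 11 members for that interaction and 8 for that change, and 2306 of all genes for that change. With the compared groups alone, the counts against vehicle were 3 in libraries labelled 1,25D at 2 h, 2 in those labelled LPA at 8 h, 6 in those labelled 1,25D at 8 h and 4 with both agents at 8 h. They were 3 for both agents against labelled 1,25D at 8 h, 9 against labelled LPA, 0 for the interaction at 8 h, 3 for vehicle at 8 h against 2 h, and for the change of an effect between the times 1 for labelled LPA, 1 for labelled 1,25D and 3 for both agents. Over all genes this setting called 1935 in libraries labelled 1,25D at 2 h (2285 in the main fit) and 1287 at 8 h (2662). With both agents at 8 h it called 988 (2758). Both agents gave 807 against labelled 1,25D (1507) and 1263 against labelled LPA (3765) at 8 h. Vehicle at 8 h against 2 h gave 413 (2393). The change of an effect gave 443 for labelled LPA (1110), 478 for labelled 1,25D (685) and 743 for both agents (1590). Counts scaled from TPM gave 4 for both agents against labelled 1,25D at 8 h, 1 for the interaction, 1 for the change of the labelled LPA effect and 5 for that of both agents. Over all genes they gave 1051, 440, 726 and 980, in the same order. Without both libraries that stood apart, the 8 h counts were 6 in libraries labelled LPA and 7 in those labelled 1,25D against vehicle, 3 for both agents against labelled 1,25D, 12 against labelled LPA and 0 for the interaction. The counts over all genes were then 1328, 1929, 1120, 2446 and 25, in the same order.

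The replicate block gave 4 for both agents against labelled 1,25D and 3 for the interaction at 8 h. Over all genes it gave 1389 and 1347. Deviations of libraries with the same number had median correlations of 0.017, 0.006 and −0.01 for numbers 1, 2 and 3, and 8 of 24 libraries correlated best with their own number, so the numbers were not taken as pairs.

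With each library left out in turn, the counts against vehicle at 2 h were 1 to 1 in libraries labelled LPA, 4 to 7 in those labelled 1,25D and 6 to 9 with both agents, and at 8 h 4 to 14 in libraries labelled LPA, 5 to 9 in those labelled 1,25D and 9 to 12 with both agents. Both agents against labelled 1,25D gave 1 to 1 at 2 h and 2 to 5 at 8 h, both agents against labelled LPA 5 to 6 at 2 h and 12 to 23 at 8 h, and labelled LPA against labelled 1,25D 9 to 12 at 2 h and 12 to 13 at 8 h. The interaction gave 0 to 0 at 2 h and 0 to 16 at 8 h, vehicle at 8 h against 2 h 8 to 11, and the change of an effect between the times 2 to 9 for labelled LPA, 2 to 3 for labelled 1,25D and 5 to 9 for both agents. Ranges over all genes were wide at 8 h too. Against vehicle they were 69 to 96, 1487 to 2084 and 2414 to 2814 at 2 h, in the same order. At 8 h they were 1051 to 3302, 1518 to 3408 and 2043 to 2748. At 2 h and 8 h both agents gave 74 to 107 and 886 to 1936 against labelled 1,25D. Against labelled LPA both agents gave 2168 to 2886 and 1943 to 4263. Labelled LPA against labelled 1,25D gave 1927 to 2710 and 2065 to 2630, and the interaction 0 to 7 and 30 to 4203. Vehicle at 8 h against 2 h gave 1606 to 2642. The change of an effect gave 378 to 3368, 449 to 797 and 1145 to 1628. 7 members had under 25 CPM in every library, where counting error is largest relative to the level: Trib3, Chac1, Sesn2, Vldlr, Slc7a11, Eif2ak3 and Sdf2l1. Their SD within groups was 0.116 to 0.299 on the log2 scale.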
